A study of Rattus norvegicus with 9 samples.

Results

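A set of 8 genes of cholesterol export and of its control by the liver X receptors (LXR) were examined in rat alveolar macrophages, which clear particles and surfactant from the air spaces. They were chosen by symbol: Nr1h3 and Nr1h2 (the receptors LXR-alpha and LXR-beta), Abca1 and Abcg1 (cholesterol exporters), Srebf1 and Pltp (LXR targets), Cyp27a1 (an oxysterol-forming enzyme) and Npc1 (a lysosomal cholesterol transporter). All 8 were found among the 17109 genes of the deposited table, and all 8 were among the 9885 genes that could be tested. Male Wistar rats of 225 to 250 g (age not given in the sources used here) received nitrogen mustard (NM; mechlorethamine hydrochloride, an alkylating agent that cross-links DNA) at 0.125 mg/kg into the trachea under isoflurane, or phosphate-buffered saline (PBS). Cells were collected by lung massage 1 or 28 d after NM, or after PBS, for which the time of collection was not given. RNA of 3 biological replicates in each of the 3 groups was sequenced as pairs of 75 bp reads, and values are FPKM (fragments scaled to transcript length and to sequencing depth) as the authors deposited them. The study's title places the work in the formation of foam cells, lipid-laden macrophages, during lung fibrosis.

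Macrophages that take up lipoproteins, surfactant or dead cells receive their cholesterol in lysosomes, from which NPC1 moves it to other membranes. Part of it is turned into oxysterols, among them the product of CYP27A1, and oxysterols activate LXR-alpha and LXR-beta, which bind DNA together with retinoid X receptors (RXR). LXR then raise transcription of the exporters ABCA1 and ABCG1, of the phospholipid transfer protein PLTP and of SREBF1, which drives fatty acid synthesis, as known mostly from mouse and human cells. Alveolar macrophages depend on this route to clear surfactant lipid, and loss of Abcg1 in mice fills them with lipid.

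In PBS lungs the exporter Abcg1 was the most abundant of the 8 genes by length-normalised level and Cyp27a1 the least. At day 1 after NM all 8 had a lower mean than in PBS, and 4 of 8 were called lower: Nr1h2, Nr1h3, Abcg1 and Srebf1. Of all 9885 genes tested 9.86% were called there in either direction, 4.58% lower. By day 28 the genes had parted. Abcg1 was still lower than in PBS and Pltp was higher (7.04% of all genes called), and Srebf1, Pltp, Cyp27a1 and Npc1 were higher than at day 1 (11.6% of all genes called).

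The upstream sequence is shown for Abca1 and Srebf1, the genes where the letters bear on LXR or on the transcripts compared further on. RefSeq promoter windows of the rat assembly GRCr8 (250 bases before to 50 after a gene's start) were at hand for 7 of the 8 genes, in 8 windows, since Srebf1 had 2 starts. The last 150 bases before the start are given 5′ to 3′ along the gene, all 3 on the minus strand, at chr5:72596474-72596623 for Abca1, at chr10:45529165-45529314 for the Srebf1 start farther upstream in the gene and at chr10:45519011-45519160 for the one farther downstream. Capitals mark matches to the motifs searched, on either strand.
Abca1: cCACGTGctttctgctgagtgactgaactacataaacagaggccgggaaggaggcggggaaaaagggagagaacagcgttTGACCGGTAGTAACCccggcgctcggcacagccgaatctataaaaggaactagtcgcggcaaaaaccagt
Srebf1 upstream start: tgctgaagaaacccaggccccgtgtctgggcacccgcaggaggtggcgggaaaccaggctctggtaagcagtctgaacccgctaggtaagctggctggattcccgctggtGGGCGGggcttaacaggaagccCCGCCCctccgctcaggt
Srebf1 downstream start: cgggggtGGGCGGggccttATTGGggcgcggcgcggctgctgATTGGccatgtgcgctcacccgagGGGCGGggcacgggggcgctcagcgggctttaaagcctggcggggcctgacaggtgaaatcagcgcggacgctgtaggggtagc
The 15 bases TGACCGGTAGTAACC of Abca1 begin 70 bases before its start and read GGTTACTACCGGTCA on the other strand. They match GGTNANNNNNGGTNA, a loosened form of the LXR/RXR element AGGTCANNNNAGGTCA, and overlap no other motif searched. Of all 33469 windows in the set, 0.675% held the loosened form and 0.00598% the strict one, and among the 7 members searched (Abcg1 was not) only Abca1 held the former and none the latter. The other capitals are an E-box (CACGTG, in 6.42% of windows) in Abca1 and GC boxes (GGGCGG, in 33.1%) and CCAAT boxes (CCAAT, in 37.5%) at the Srebf1 starts. In the 8058 windows of genes tested here these shares were 9.57%, 61.8% and 38.2%. The sterol element TCACNCCAC (in 1.12%) was in none of the 8 windows, and the hexamer AGGTCA (in 16.2%) was in that of Cyp27a1. A match describes letters in the window, not a site in use.

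The libraries had upper quartiles of FPKM between 19.1 and 19.6, and depth relative to NM day 1 replicate 0, taken from low FPKM values, ran from 1.42 to 2.58 in PBS, from 1 to 1.47 at NM day 1 and from 1.03 to 1.12 at NM day 28. Of 13 alveolar macrophage markers 11 were in the table, and their summed FPKM lay between 14140 and 28930 in PBS, 9721 and 14620 at NM day 1, and 13970 and 17110 at NM day 28. Among them Lyz2, Plet1 and Cd68 were abundant, while Marco and Adgre1 were listed at 0 in every library. Of 9 tested, Car4 was called higher than in PBS at day 1 and at day 28, at 12.85 and 6.65 FPKM against 0.255. Pparg was called lower than in PBS at day 1 and Mrc1 at day 28. Between the NM groups only Pparg was called, higher at day 28. Summed alveolar epithelial markers at day 1 were between 1037 and 3096 FPKM against 238 to 407 in PBS and 281 to 390 at day 28. At day 1, 9 of 14 tested were called higher than in PBS, and Sftpd was listed at 0 in every library. At day 28 Hopx was called higher than in PBS and Krt18 and Krt19 lower. Napsa alone averaged 155.5 FPKM in PBS, 119 at day 1 and 216 at day 28. Neutrophil markers summed to between 716 and 1034 FPKM at day 1 and 571 and 1066 at day 28 against 288 to 455 in PBS. Of 8 tested, 5 were called higher and 1 lower at day 1, and 4 higher at day 28. Cxcr1, the 1 lower, averaged 162 FPKM at day 1, 349 at day 28 and 288 in PBS. S100a8 averaged 264, 177.5 and 15.65 FPKM in that order. Monocyte markers summed to between 216 and 263, 162 and 222, and 80.4 and 85.5 in the same order, with 6 of 8 called higher at day 1 and 3 at day 28. Retnlg and Ccr2 were listed at 0 in all PBS libraries. Lymphocyte markers summed to between 31.0 and 37.0 FPKM at day 1 against 10.3 to 17.7 in PBS and 6.85 to 23.7 at day 28, with Cd2 and Cd8a called higher at day 1 than in PBS and lower at day 28 than at day 1. Airway epithelial markers summed to between 1186 and 6891 FPKM in PBS, 1174 and 2792 at day 1 and 751 and 1149 at day 28, and of 4 tested Tppp3 was called lower than in PBS at day 1 and Cyp2f4 and Scgb3a2 at day 28. Endothelial markers summed to between 38.9 and 42.9, 40.9 and 53.5, and 20.9 and 31.8 FPKM in the same order, with Plvap called higher at day 1 and Pecam1 and Plvap lower at day 28 than at day 1. Erythroid markers summed to between 128 and 559, 135 and 207, and 124 and 173 FPKM with 0 called by limma, and those of fibroblasts and smooth muscle to at most 0.719 FPKM in any library. In such bulk RNA fewer cells of a type and less RNA per cell cannot be told apart, and the part of these other cells in the results that follow was not tested.

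Nr1h2, which encodes LXR-beta, the LXR found in most tissues, stood at 238, 267 and 209 FPKM in the PBS libraries (replicates 0, 1 and 2), at 101, 120.0 and 142 at NM day 1 and at 181, 152 and 166 at NM day 28. Each PBS library was above each day 28 library, and each of those above each day 1 library. The mean fell from 238 ± 29.2 to 121 ± 20.5 FPKM at day 1 (SD, n = 3; change of -0.98 on the log2 scale with SE 0.17, limma adjusted p = 0.00418, Benjamini-Hochberg over all 9885 genes). At day 28 it was 166 ± 14.5 FPKM, which did not pass against PBS (log2 change -0.51 with SE 0.17, adjusted p = 0.0876) or against day 1 (0.47 ± 0.17 SE, adjusted p = 0.094). The fall at day 1 passed in each of the 19 alternative fits (adjusted p from 0.00318 to 0.0324).

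Nr1h3 encodes LXR-alpha, the form enriched in macrophages and liver. Its levels were 250.4, 214 and 182 FPKM in PBS, 130.0, 146 and 113 at NM day 1 and 176, 117 and 180.1 at NM day 28. The 3 PBS libraries were the highest of all 9, and day 28 overlapped day 1 through its replicate 1. At day 1 the mean fell from 216 ± 34.3 to 130 ± 16.6 FPKM (SD, n = 3; change of -0.73 on the log2 scale with SE 0.20, limma adjusted p = 0.0386). Day 28, at 158 ± 35.6 FPKM, had a log2 fold change of -0.46 ± 0.20 SE against PBS (adjusted p = 0.18). The day 1 call ended without PBS replicate 0 (adjusted p = 0.119), PBS replicate 1 (0.121) or any 1 of the NM day 1 libraries (0.138, 0.0697 and 0.129 for replicates 0, 1 and 2), and also with median-of-ratios scaling, quantile normalisation, no filter or the replicate block (0.0507 to 0.0929).

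Both receptors were thus at similar length-normalised levels, and the FPKM ratio of Nr1h3 to Nr1h2 within a library, which does not depend on how libraries are scaled, was 0.909 ± 0.129 in PBS, 1.1 ± 0.267 at day 1 and 0.944 ± 0.161 at day 28 (SD, n = 3). The groups overlapped, and the difference in log2 ratio between day 1 and PBS was 0.25 (exact permutation p = 0.4, two-sided; 3 against 3 cannot go below 0.1).

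**Figure D1:**
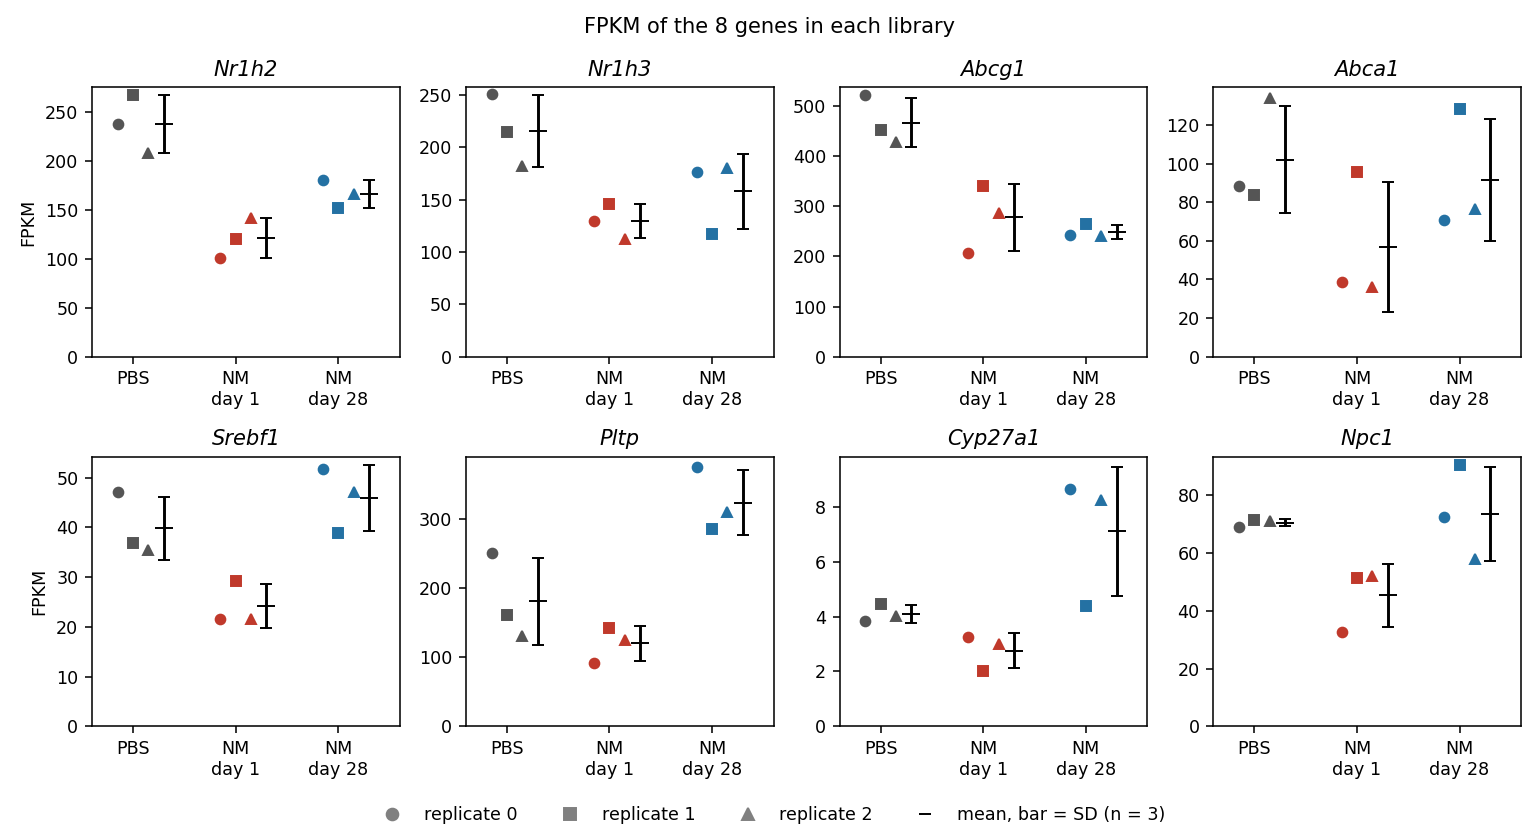
FPKM of the 8 genes (linear axes from 0, 1 panel a gene) in the 9 libraries, marked by replicate number, with the mean and SD of each group of 3. Nr1h2 and Nr1h3 were highest in the 3 PBS libraries, Abcg1 was lower in all 6 NM libraries than in any PBS library, and Pltp was higher in all 3 NM day 28 libraries than in any other.

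Abcg1, which passes cholesterol to HDL particles, measured 522, 451 and 428 FPKM in PBS, 207, 340 and 286 at NM day 1 and 242, 265 and 241 at NM day 28. All 6 NM libraries lay below all 3 PBS libraries, and the NM groups overlapped each other. Levels fell from 467 ± 48.7 to 278 ± 66.9 FPKM at day 1 (SD, n = 3; change of -0.77 on the log2 scale with SE 0.19, limma adjusted p = 0.0244). They were 249 ± 13.5 FPKM at day 28 (log2 change against PBS -0.90 with SE 0.19, adjusted p = 0.0145). The difference between day 28 and day 1 was -0.13 on the log2 scale (95% confidence interval -0.54 to 0.28, adjusted p = 0.713). The day 1 call ended without PBS replicate 0 (adjusted p = 0.0764), PBS replicate 1 (0.0808), NM day 1 replicate 0 (0.13) or NM day 1 replicate 2 (0.0566) and after quantile normalisation (0.124). The day 28 call ended without PBS replicate 1 (0.0548) or NM day 28 replicate 2 (0.0544) and after quantile normalisation (0.0572).

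Abca1, which loads cholesterol and phospholipid onto lipid-poor apolipoproteins, was more variable, at 88.5, 83.5 and 134 FPKM in PBS, 38.7, 95.8 and 35.9 at NM day 1 and 70.8, 128 and 76.4 at NM day 28. Replicate 1 of each NM group was the high one, and all 3 groups overlapped. The mean was 102 ± 27.8 FPKM in PBS, 56.8 ± 33.8 at day 1 and 91.7 ± 31.6 at day 28 (SD, n = 3), and none of the 3 comparisons passed (adjusted p = 0.108, 0.817 and 0.171 by limma for day 1 against PBS, day 28 against PBS and day 28 against day 1). The interval of the day 1 difference was wide, -1.71 to -0.19 on the log2 scale (95% confidence interval of the fit). Without NM day 1 replicate 1, Abca1 was lower at day 1 than in PBS (log2 fold change -1.40, adjusted p = 0.0205) and higher at day 28 than at day 1 (1.23, adjusted p = 0.03).

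The balance of the exporters differed in mean between the NM groups. Abcg1 exceeded Abca1 in every library, by an FPKM ratio of 4.83 ± 1.44 in PBS, 5.63 ± 2.23 at day 1 and 2.88 ± 0.716 at day 28 (SD, n = 3). At day 28 the ratios were 3.42, 2.07 and 3.15, below the 3 day 1 values of 5.35, 3.55 and 7.98, and the difference of -0.92 in log2 ratio reached the smallest p that 3 against 3 allows (exact permutation p = 0.1, two-sided). Against PBS the day 28 ratios overlapped (exact permutation p = 0.2).

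Srebf1 encodes SREBP-1, a transcription factor of fatty acid synthesis whose gene LXR induce in mouse liver. Its summed transcripts reached 47.1, 36.8 and 35.5 FPKM in PBS, 21.6, 29.2 and 21.5 at NM day 1 and 51.8, 38.8 and 47.2 at NM day 28. The 3 day 1 libraries were the lowest of the 9, while PBS and day 28 overlapped. It fell from 39.8 ± 6.37 to 24.1 ± 4.41 FPKM at day 1 (SD, n = 3; change of -0.70 on the log2 scale with SE 0.19, limma adjusted p = 0.0336), and at day 28, at 45.9 ± 6.61 FPKM, it was higher than at day 1 (0.91 ± 0.19 SE, adjusted p = 0.00884). The latter passed in all 19 alternative fits (adjusted p from 0.00665 to 0.0435). The day 1 call ended without PBS replicate 0 (adjusted p = 0.113), PBS replicate 1 (0.0923), NM day 1 replicate 0 (0.152) or NM day 1 replicate 2 (0.11) and after quantile normalisation (0.0514).

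Srebf1 was the 1 member with 2 transcript rows, NM_001276707 and NM_001276708. Which of them begins at which of the starts shown above, and which corresponds to the isoform known as SREBP-1c, the tables used here do not say. NM_001276708 was at 38.4, 27.1 and 11.7 FPKM in PBS, 7.58, 9.04 and 10.1 at NM day 1 and 30.3, 23.1 and 40.4 at NM day 28. The day 1 libraries were the lowest for this transcript, and PBS replicate 2 came close to them. NM_001276707 was at 8.74, 9.70 and 23.8 in PBS, 14.1, 20.2 and 11.5 at day 1 and 21.5, 15.7 and 6.83 at day 28, with overlap of all groups. With the 10317 transcripts that passed the filter tested singly, NM_001276708 rose from day 1 to day 28 (log2 change 1.68 with SE 0.36, adjusted p = 0.0177 by limma) and missed the threshold between PBS and day 1 (-1.29 ± 0.36 SE, adjusted p = 0.0565), where it passed without PBS replicate 2 (-1.76, adjusted p = 0.0077) or without NM day 28 replicate 1 (0.0466). Its rise ended without replicate 0 (adjusted p = 0.0697) or 1 (0.0636) of NM day 1 and without replicate 0 (0.0505) or 2 (0.0616) of NM day 28. NM_001276707 had adjusted p = 0.824, 0.953 and 0.874 for day 1 against PBS, day 28 against PBS and day 28 against day 1.

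The share of Srebf1 FPKM that lay in NM_001276708 was 81.5, 73.6 and 32.9% in the PBS libraries, 35.0, 30.9 and 46.7% at day 1 and 58.5, 59.5 and 85.5% at day 28. Each day 28 share was above each day 1 share, by 30.3 percentage points in the mean (exact permutation p = 0.1, the smallest that 3 against 3 allows), whereas PBS overlapped day 1 through its replicate 2 and day 28 through its replicates 0 and 1 (against day 1 exact permutation p = 0.3). The split between the transcripts is the authors' estimate, and the transcripts were examined singly after their values had been seen.

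**Figure D2:**
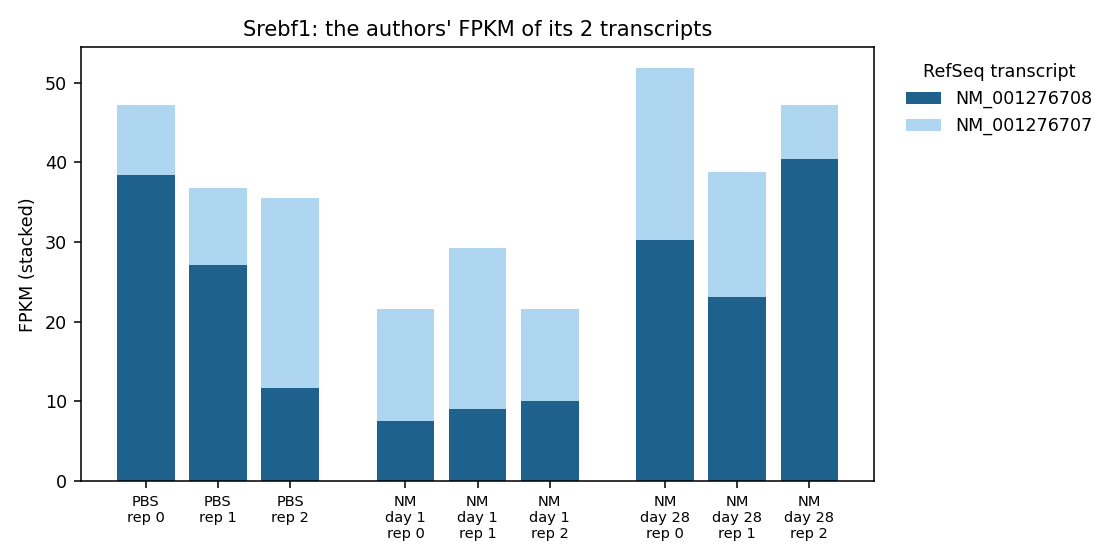
FPKM of the 2 Srebf1 transcripts stacked for each of the 9 libraries (linear axis from 0). NM_001276708 is shortest in the NM day 1 libraries, between 7.58 and 10.1 FPKM, and PBS replicate 2 differs from the other PBS libraries by a larger share of NM_001276707.

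Srebf2, which drives cholesterol synthesis and is not itself known as an LXR target, did not pass in any comparison (36.6 ± 9.39 FPKM in PBS, 30.4 ± 4.67 at day 1 and 35.95 ± 5.21 at day 28; adjusted p = 0.516, 0.994 and 0.514). The ratio of Srebf1 to Srebf2 was 1.75, 0.984 and 0.779 in PBS, 0.836, 0.83 and 0.713 at day 1 and 1.53, 0.927 and 1.47 at day 28. All day 28 ratios exceeded all day 1 ratios, by 0.69 on the log2 scale (exact permutation p = 0.1, the smallest possible here), and PBS overlapped both.

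Pltp, whose product moves phospholipid between lipoproteins, showed the largest fold change among the members, between the NM groups. Its levels were 251, 162 and 130.3 FPKM in PBS, 92.3, 143 and 124 at NM day 1 and 376, 285 and 310 at NM day 28. Every day 28 library was above every other library, and PBS and day 1 overlapped. The mean rose from 120 ± 25.6 FPKM at day 1 to 324 ± 47.0 at day 28 (SD, n = 3; change of 1.44 on the log2 scale with SE 0.24, limma adjusted p = 0.00306), and this passed in all 19 alternative fits (adjusted p from 0.00109 to 0.0184). Against PBS, at 181 ± 62.9 FPKM, day 28 was higher as well (0.88 ± 0.24 SE, adjusted p = 0.0473). That call lay near the threshold and ended in 10 of 19 alternatives. It ended without replicate 1 (adjusted p = 0.164) or 2 (0.117) of PBS or replicate 1 (0.0529) or 2 (0.0684) of NM day 1. The same held without replicate 0 (0.134) or 2 (0.102) of NM day 28. It also ended with the replicate block (0.0586), no filter (0.0932) or only the 6 libraries compared (0.0717). With only the transcript of highest mean kept for each gene the adjusted p was 0.0541. Day 1 did not pass against PBS (-0.56 ± 0.24 SE, adjusted p = 0.168).

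Cyp27a1, the mitochondrial enzyme that forms 27-hydroxycholesterol, was scarce. It was listed at 3.84, 4.46 and 4.005 FPKM in PBS, 3.26, 2.03 and 2.99 at NM day 1 and 8.66, 4.401 and 8.25 at NM day 28. The day 1 libraries were the lowest, and at day 28 replicates 0 and 2 stood above all others while replicate 1 lay within the PBS range. It was higher at day 28 than at day 1 (7.10 ± 2.35 against 2.76 ± 0.642 FPKM, SD, n = 3; change of 1.08 on the log2 scale with SE 0.26, limma adjusted p = 0.0203), a fold change that the added pseudocount of 1 makes smaller than the ratio of the means, 2.58. The call ended without replicate 1 (adjusted p = 0.0928) or 2 (0.0521) of NM day 1 and without replicate 0 (0.0761) or 2 (0.0719) of NM day 28. Neither NM group passed against PBS (adjusted p = 0.308 at day 1 and 0.173 at day 28), although day 28 passed without its replicate 1 (0.0383).

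Npc1 carries cholesterol out of the lysosome. Its PBS libraries were close together at 69.2, 71.4 and 71.3 FPKM, against 32.8, 51.4 and 52.1 at NM day 1 and 72.6, 90.5 and 57.9 at NM day 28. All day 1 values lay below all others. The difference from PBS missed the threshold (45.4 ± 10.97 against 70.6 ± 1.21 FPKM, SD, n = 3; change of -0.66 on the log2 scale with SE 0.21, limma adjusted p = 0.0677; 0.0382 without NM day 28 replicate 1). Day 28 was higher than day 1 at 73.7 ± 16.3 FPKM (0.69 ± 0.21 SE, adjusted p = 0.0498), at the edge of the threshold. That call ended in 15 of 19 alternatives: without any 1 PBS library (adjusted p = 0.0599, 0.0752 and 0.0554 for replicates 0, 1 and 2) or NM day 1 library (0.18, 0.0769 and 0.0667), without replicate 0 (0.117) or 1 (0.109) of NM day 28, and in 7 others (0.0545 to 0.0903).

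**Figure D3:**
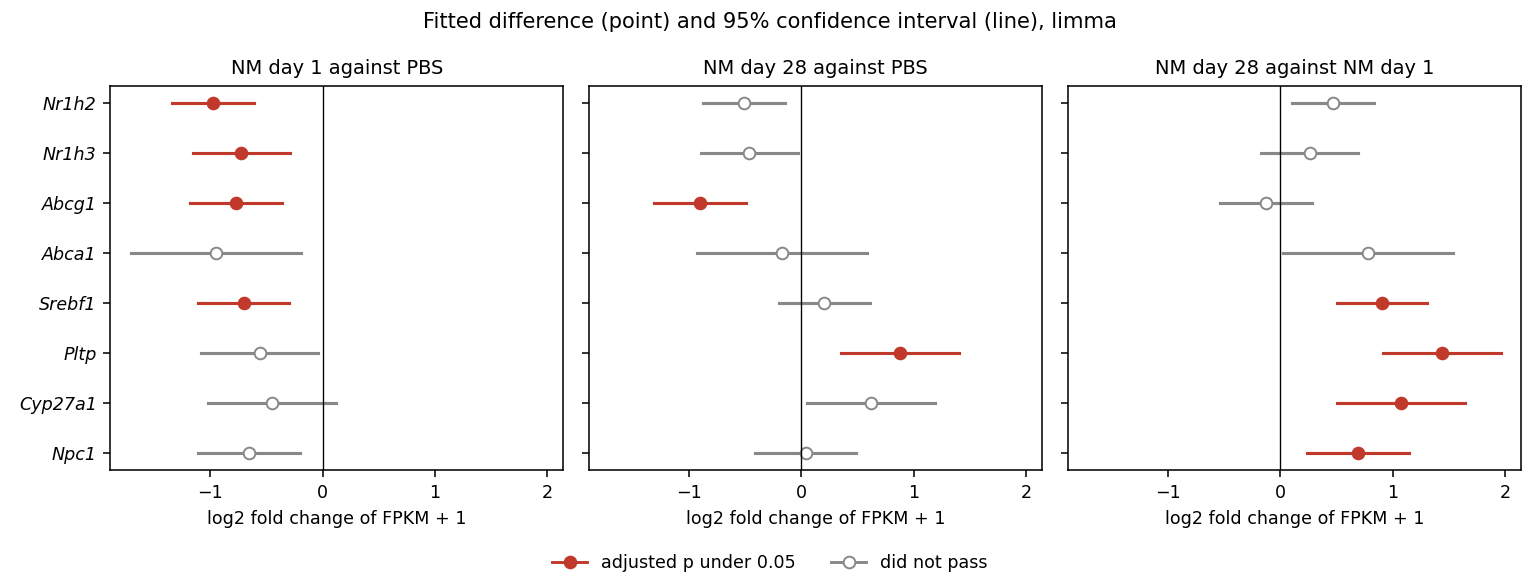
Fitted log2 fold change of FPKM + 1 (points) with its 95% confidence interval (lines) for the 8 genes in the 3 comparisons, filled red where the adjusted p was under 0.05. All 8 points lie below 0 for NM day 1 against PBS, 4 on either side for NM day 28 against PBS, and 7 above 0 for NM day 28 against NM day 1.

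Set against all genes tested, 4 of 8 members were lower at day 1 than in PBS and 0 higher, where 4.58% of the 9885 genes were called lower and 5.28% higher. The median log2 fold change was -0.71 for the members and -0.04 for all genes. For 6 of 8 the day 1 and PBS libraries did not overlap, as was so for 33.3% of all genes (18.1% with day 1 the lower). The count of 4 came down to 1, Nr1h2, without PBS replicate 0, PBS replicate 1, NM day 1 replicate 0 or NM day 1 replicate 2, in fits where 2 libraries stood for a group, and after quantile normalisation.

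For day 28 against PBS the counts were 1 lower (Abcg1) and 1 higher (Pltp) of 8, beside 3.98% and 3.07% of all genes, and the medians were -0.07 and -0.04. Libraries did not overlap for 4 of 8 members, against 27.1% of all genes. Limma called 0 members without PBS replicate 1 or without NM day 28 replicate 2. It called 1 without PBS replicate 2, replicate 1 or 2 of NM day 1, or replicate 0 of NM day 28. Between day 28 and day 1, 4 of 8 were higher and 0 lower, beside 4.75% and 6.88% of all genes, with medians of 0.74 and -0.00 and no overlap for 5 of 8 members against 30.8% of all genes. There 2 were called without NM day 1 replicate 2 or NM day 28 replicate 0. The 2 comparisons with PBS share its 3 libraries.

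The order of the 8 genes by length-normalised level also shifted. In PBS it ran from Abcg1 through Nr1h2, Nr1h3, Pltp, Abca1, Npc1 and Srebf1 to Cyp27a1, and neighbours from Nr1h2 to Abca1 overlapped. At day 28 Pltp came first, its lowest library (285 FPKM) above the highest of Abcg1 (265). Among the genes tested Abcg1 lay at the 95.4th to 97.6th percentile of FPKM over the 9 libraries, and Pltp moved from the 89.6th to 93.2nd at day 1 to the 96.7th to 97.2nd at day 28. Cyp27a1 stayed low, between the 7.5th and the 33.4th percentile.

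**Figure D4:**
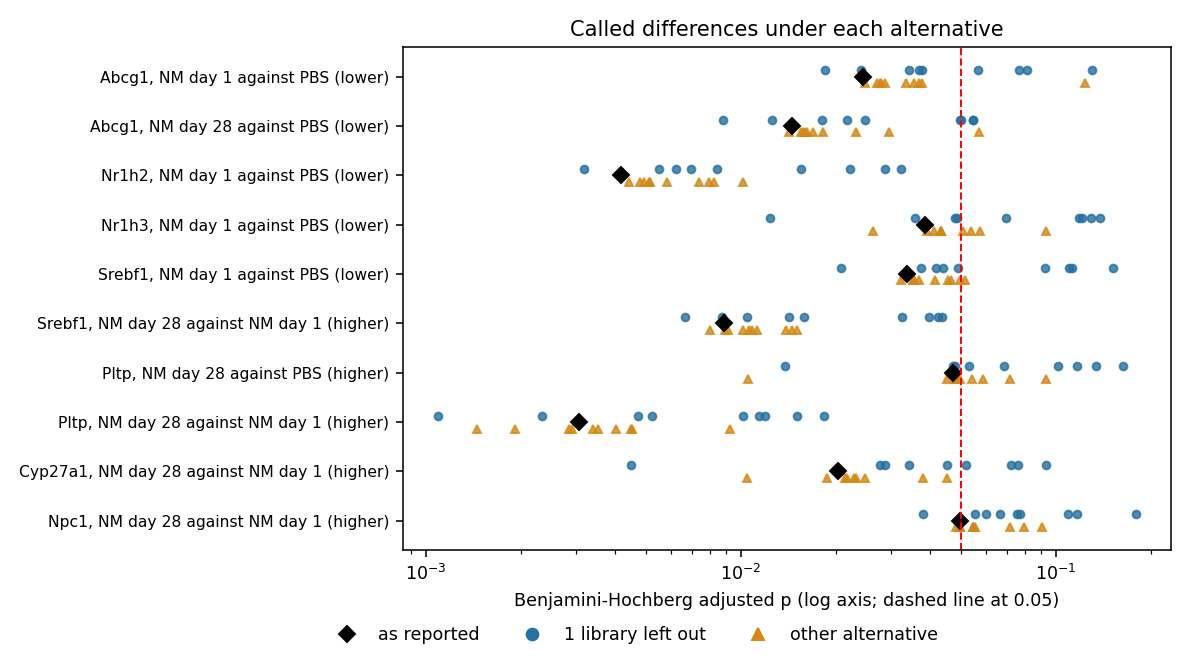
Adjusted p (log axis, dashed line at 0.05) of the 10 called member differences as reported (diamonds), with 1 library left out (circles) and under the other alternatives (triangles). Nr1h2 at day 1 and the rises of Srebf1 and Pltp from day 1 to day 28 stay left of the line in every fit, while Npc1 crosses it in 15 of 19.

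Other genes of the pathway were followed in 7 lists with 59 tested genes. At day 1 against PBS 6 were lower and 2 higher, beside 4.58% and 5.28% of all 9885 genes (median log2 fold changes -0.24 and -0.04). At day 28 against PBS 3 were lower and 5 higher, beside 3.98% and 3.07% (medians -0.18 and -0.04). At day 28 against day 1 it was 1 lower and 9 higher, beside 6.88% and 4.75% (medians 0.25 and -0.00).

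Of the 8 tested LXR partners and corepressors, 2 were lower at day 1 and 0 higher (median -0.53). Rxrb, an RXR, fell from 33.7 ± 2.99 to 21.95 ± 2.64 FPKM (SD, n = 3; adjusted p = 0.045 by limma). Pparg, a nuclear receptor that sustains alveolar macrophage identity and acts upstream of LXR-alpha in macrophages, was at 176, 175 and 180.3 FPKM in PBS, at 115, 105 and 141 at day 1 and at 178, 193 and 178 at day 28. Its fall at day 1 (log2 change -0.57 with SE 0.15, adjusted p = 0.0315) and its rise from day 1 to day 28 (0.61 ± 0.15 SE, adjusted p = 0.0192) passed. The Pparg call at day 1 ended in 8 of 19 alternatives, among them each PBS library and replicates 0 and 1 of NM day 1 left out (adjusted p up to 0.15), and its rise ended in 4 of 19, without replicate 0 or 1 of NM day 1 or replicate 0 or 2 of NM day 28 (up to 0.0928). The Rxrb call ended in 10 of 19, among them each PBS and each NM day 1 library and replicate 2 of NM day 28 left out (up to 0.198).

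Apoe, the apolipoprotein that carries exported cholesterol and an LXR target, rose from 19.96 ± 8.34 FPKM in PBS to 90.3 ± 53.7 at day 1 and 566 ± 103 at day 28 (SD, n = 3; log2 fold changes against PBS 2.04 ± 0.37 and 4.82 ± 0.37 SE, adjusted p = 0.00585 and 0.000175 by limma). Of the 10 tested LXR targets it was the 1 called against PBS at either time, and Abcg2, a transporter, was lower at day 28 than at day 1 (1.11 ± 0.859 against 3.39 ± 0.263 FPKM, adjusted p = 0.0329). The Abcg2 call ended in 9 of 18 alternatives, among them a pseudocount of 0.1 (adjusted p = 0.0523), quantile normalisation (0.11) and PBS replicate 1, any NM day 1 library or replicate 0 or 2 of NM day 28 left out (up to 0.106). Apoe was also higher at day 28 than at day 1 (log2 fold change 2.78 ± 0.37 SE, limma adjusted p = 0.000899). With only the transcript of highest mean kept for each gene, Apoe missed the threshold at day 1 against PBS (3.25, adjusted p = 0.0518). The same held between the NM groups (2.96, adjusted p = 0.0668). Each of these 2 calls was kept in the other 18 of 19 alternatives. The medians of that list were -0.06, -0.38 and -0.09 for day 1 against PBS, day 28 against PBS and day 28 against day 1.

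Among the 14 genes of cholesterol transport in lysosome and cytosol, the late endosomal cholesterol binder Stard3 fell at day 1 from 242 ± 17.9 to 132 ± 23.3 FPKM (SD, n = 3; change of -0.88 on the log2 scale with SE 0.17, limma adjusted p = 0.0075). Tmem97 was lower at day 28 than in PBS (-0.73, adjusted p = 0.0435), and the late endosomal GTPase Rab7a (0.61, adjusted p = 0.0227) and the sterol carrier Stard5 (0.50, adjusted p = 0.0433) were higher at day 28 than at day 1. The Tmem97 call ended in 10 of 19 alternatives, among them replicate 0 or 1 of PBS, any NM day 1 library and replicate 0 or 2 of NM day 28 left out (adjusted p up to 0.158). The Stard5 call ended in 10 of 19, with the replicate block (0.0729), with only the 6 libraries compared (0.0666) and with replicate 0 or 1 of PBS or any NM library left out (up to 0.138). That of Rab7a ended in 3 of 19 (without replicate 1 or 2 of NM day 1 or replicate 0 of NM day 28, up to 0.105) and that of Stard3 without replicate 0 of NM day 1 (0.0557). List medians were -0.27, -0.09 and 0.32 in the order used above.

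Of 8 tested oxysterol and bile acid route enzymes, Star, which brings cholesterol to the inner mitochondrial membrane, fell at day 1 from 38.95 ± 8.55 to 20.1 ± 1.84 FPKM and stood at 19.5 ± 0.444 at day 28 (SD, n = 3; adjusted p = 0.00932 and 0.00927 against PBS by limma), calls kept in all 19 alternatives. Hsd3b7, which acts on oxysterols in bile acid synthesis, was lower at day 1 (30.1 ± 2.31 against 50.2 ± 6.54 FPKM, adjusted p = 0.0308) and higher at day 28 than at day 1 (60.3 ± 13.6 FPKM, adjusted p = 0.00633). Its day 1 call ended in 6 of 19 alternatives, quantile normalisation (0.064) and replicate 0 or 1 of PBS or any NM day 1 library left out (up to 0.142), and the later one in 0 of 19. The medians were -0.25, -0.17 and -0.10.

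Scarb1, the HDL receptor SR-BI, was the 1 call among 5 other exporters and HDL proteins. It rose from 15.5 ± 0.629 FPKM at day 1 to 31.4 ± 5.29 at day 28 (SD, n = 3; change of 0.96 on the log2 scale with SE 0.18, limma adjusted p = 0.00581), and it was above PBS as well (16.7 ± 2.65 FPKM, adjusted p = 0.0141; up to 0.0806 without replicate 1 of PBS or replicate 0 or 2 of NM day 28). Of 5 genes listed for cholesteryl ester storage, Nceh1, an ester hydrolase, was lower at day 28 than in PBS (14.4 ± 2.33 against 32.6 ± 11.9 FPKM, adjusted p = 0.033). That call ended in 7 of 19 alternatives: with no filter (0.0731), with only the 6 libraries compared (0.0509) and without replicate 0 or 1 of PBS or any NM day 28 library (0.0501 to 0.15). Acat2, higher there (adjusted p = 0.0149; 0.0599 without NM day 28 replicate 2), encodes an acetyl-CoA thiolase rather than a sterol esterifying enzyme. The medians were -0.45, -0.22 and 0.39 for the exporter list and -0.13, -0.20 and 0.23 for the storage list.

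In the SREBP list of 9 tested genes, Scap, the escort of SREBP proteins, was lower at day 1 (26.3 ± 3.01 against 43.9 ± 6.06 FPKM, SD, n = 3; adjusted p = 0.0167 by limma) and higher at day 28 than at day 1 (45.7 ± 0.607 FPKM, adjusted p = 0.00833). Hmgcs1, an enzyme of sterol synthesis, rose at day 1 (19.8 ± 1.59 against 11.7 ± 0.80 FPKM, adjusted p = 0.032) and reached 32.7 ± 7.69 FPKM at day 28 (adjusted p = 0.00118 against PBS). Insig1, which holds SREBP in the endoplasmic reticulum, was higher at day 28 than in PBS (51.1 ± 1.92 against 25.1 ± 1.26 FPKM, adjusted p = 0.0027). Hmgcs1 and Insig1 were also higher at day 28 than at day 1 (limma adjusted p = 0.0347 and 0.0314). That Insig1 call ended in 8 of 19 alternatives (up to 0.131). The Hmgcs1 call at day 1 ended in 6 of 19 alternatives, with each PBS or NM day 1 library left out (adjusted p from 0.066 to 0.138). The Scap call at day 1 ended without replicate 1 of PBS (0.0923) or replicate 0 (0.0991) or 2 (0.0508) of NM day 1. The medians were -0.06, 0.10 and 0.31.

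**Figure D5:**
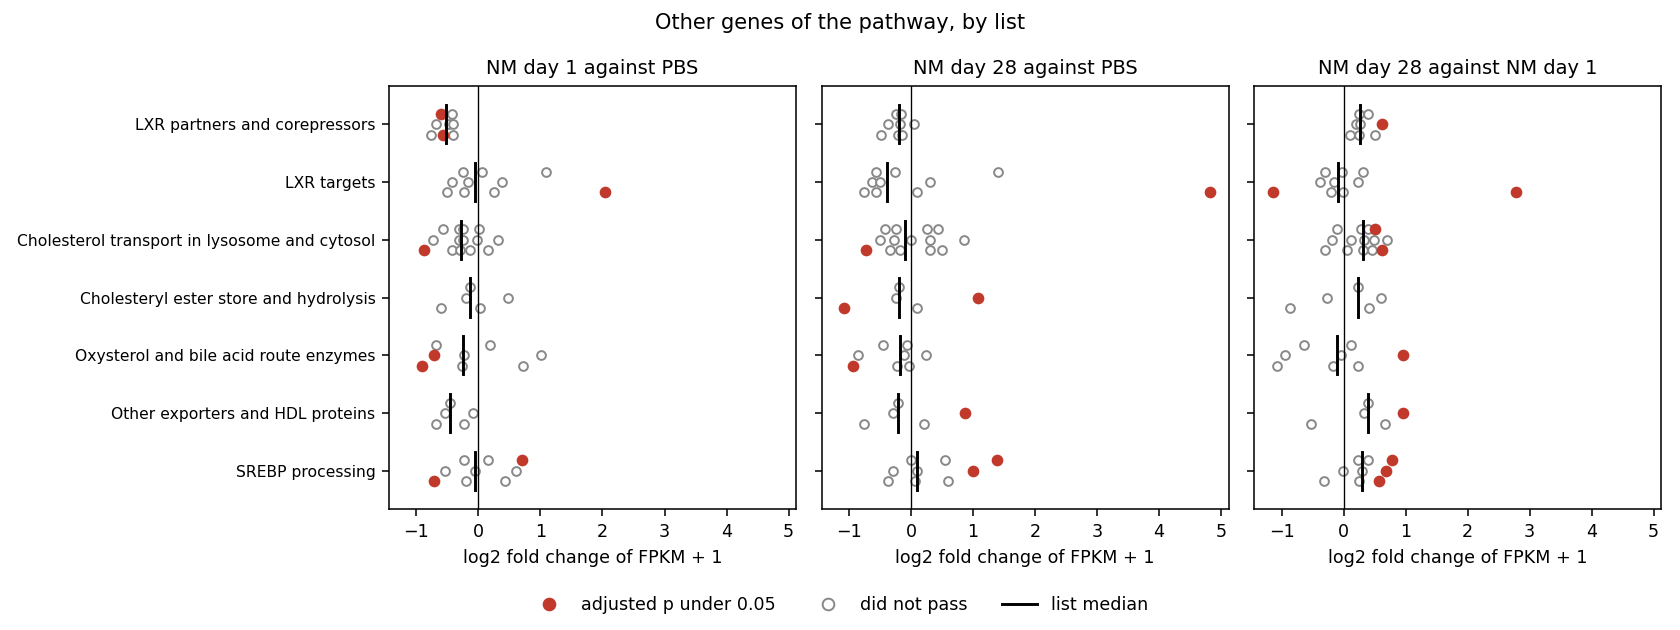
Log2 fold change of FPKM + 1 of the 59 other pathway genes in 7 lists (rows) and 3 comparisons (panels), filled where the adjusted p was under 0.05, with the list median as a bar. Called genes number 8, 8 and 10 of 59 from left to right, where 9.86%, 7.04% and 11.6% of all 9885 genes were called. The points farthest to the right are Apoe.

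The profiles most like those of the members were sought among 7371 other named genes with a mean of at least 5 FPKM, by the root mean square difference of log2(FPKM + 1) over the 9 libraries after each gene was centred on its own mean. Nearest to Nr1h2 were Stard3 (0.08) and Tle5 (0.09), and nearest to Nr1h3 were Vat1 (0.11) and Pigt (0.12). Abcg1 had Agtrap (0.13) and Tm6sf2 (0.14), and Abca1 had Fbxo32 (0.24) and Arid3a (0.26). Srebf1 had Tmbim6 (0.13) and Mknk2 (0.15), Pltp had Sts (0.20) and Ghdc (0.26), Cyp27a1 had Rnd2 (0.14) and Cfap141 (0.16), and Npc1 had Fuz (0.14) and Mib2 (0.14). Among the members, the nearest to Nr1h2 was Nr1h3 (0.26), with 358 of the 7371 other genes nearer. For Pltp the nearest member was Srebf1 (0.34), with 23 of the 7371 nearer. Candidates outside the set far outnumbered the members, so some nearer genes were likely from the start. These counts do not settle how alike the members are. With a pseudocount of 5 neither of the named neighbours of Abca1, Abcg1, Cyp27a1 and Npc1 was among the nearest pair, and Nr1h3 and Pltp each kept 1. With a pseudocount of 0.1, Abcg1, Pltp and Cyp27a1 each kept 1. Only Nr1h2 and Srebf1 kept the whole pair in each setting.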

How the data were processed

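The authors deposited FPKM per RefSeq transcript, 18197 rows in each of 9 libraries, made with TopHat and Cuffdiff on the rat build rn4 per the submitters' processing notes. The sources used here give no versions, annotation, strand, read totals or handling of shared reads. A GRCr8 RefSeq table named 17189 rows (94.5%), and rows of 1 symbol were summed. Genes with at least 1 FPKM in at least 3 libraries (9885) went into limma 3.58.1 under R 4.3.3 as log2(FPKM + 1), in 1 model of 3 group means over all 9 libraries with an intensity trend in eBayes, and Benjamini-Hochberg adjustment. Genes were called at an adjusted p under 0.05. The fit was tried on simulated data. Ratios and shares were tested by exact permutation. Tables and figures used Python 3.11.15, pandas 2.3.3, scipy 1.17.1 and matplotlib 3.10.9. Members, lists and tests were chosen with earlier results of these data known. Pathway genes named were up to 2 called genes with the smallest adjusted p per list and comparison, plus Srebf2, Apoe and Pparg. Alternatives were other pseudocounts, filters and scalings, and for each gene the transcript of highest mean alone. Others were the replicate number as a block, the 6 libraries compared, robust eBayes and each library left out. Deviations of same-numbered libraries from their group means correlated weakly (r from -0.10 to 0.20). That cannot exclude pairing, but numbers were not taken as pairs. Absolute depth is unknown, so no counting intervals are given.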

Additional observations from a re-analysis of the deposited data

Results flagged for a closer look

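In 4 members the difference from PBS at day 28 departed from that at day 1 by the test of the difference itself, the contrast of NM day 28 with NM day 1 (limma, log2 scale, adjusted p under 0.05): Pltp by 1.44 (adjusted p = 0.00306), Cyp27a1 by 1.08 (0.0203), Srebf1 by 0.91 (0.00884) and Npc1 by 0.69 (0.0498). In each of the 4 the 3 day 28 libraries were all above the 3 day 1 libraries. Since this same contrast picked the 4 genes, that separation adds no further support. Of all 9885 genes tested, 4.75% were called higher in this contrast. In 15.1% all day 28 libraries lay above all day 1 libraries. Alveolar epithelial markers were called lower at day 28 than at day 1 in 12 of 14 tested and higher in 1, Napsa (216 against 119 FPKM, adjusted p = 0.0128), and their part in the differences was not tested. Groups of 3 were too small for a search for single outlying libraries.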

How the results depend on the processing

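Of 453 alternative fits of the members' 24 differences, 395 kept direction and side of the threshold, 51 ended a call, 4 gained one and 3 changed sign without a call. Only differences called in the main fit could lose a call, so the 453 include many fits that could not. Losses ran from 0 of 19 for Nr1h2 at day 1 against PBS to 15 of 19 for Npc1 between the NM groups. The number of members called for day 1 against PBS was 4, 1 after quantile normalisation and 1 to 5 with a library left out. For day 28 against PBS it was 2, and 1 with no filter, quantile normalisation, the replicate block or only the 6 libraries compared. It was also 1 with the transcript of highest mean alone for each gene, and 0 to 3 with a library left out. For day 28 against day 1 it was 4, 2 with a filter of 5 FPKM (which removed Cyp27a1) and 2 to 3 with a library left out. The replicate block gave 3, 1 and 4 members in the 3 comparisons. The numbers are not stated to mark pairs, and the correlations could not settle it (own number nearest in 3 of 9). The causes were not tested. Over all genes, calls numbered 975 (236 to 1379 with a library left out), 696 (274 to 794, and 460 with only the 6 libraries) and 1150 (514 to 1406). Without 1 library the log2 change of day 28 against PBS ran from -0.43 to 0.0418 for Abca1 and from -0.12 to 0.20 for Npc1, and that of day 28 against day 1 from -0.32 to 0.0329 for Abcg1. Srebf2 at day 28 against PBS went from -0.00 to 0.0182 with median-of-ratios scaling and 0.033 with quantile normalisation, and ran from -0.20 to 0.17 without 1 library. Log2 ratios ran from -0.10 to 0.48 for Abcg1 to Abca1 at day 1, from -0.0607 to 0.19 for Nr1h3 to Nr1h2 at day 28 and from -0.0404 to 0.54 for Srebf1 to Srebf2 at day 28, each against PBS. Transcript NM_001276707 ran from -0.0405 to 0.63, -0.26 to 0.50 and -0.47 to 0.29 in the 3 comparisons, and NM_001276708 from -0.0794 to 0.74 at day 28 against PBS, where its share differed by -9.71 to 14.6 percentage points. Leave-one-out ranges of the other ratios kept their sign: 0.12 to 0.47 and -0.42 to -0.06 (Nr1h3 to Nr1h2), -1.0 to -0.51 and -1.22 to -0.63 (Abcg1 to Abca1), -0.73 to -0.15 and 0.56 to 0.92 (Srebf1 to Srebf2).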

Other observations

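Ch25h, the macrophage enzyme that forms 25-hydroxycholesterol, another LXR ligand, was singled out after its values had been seen. It averaged 155 FPKM in PBS, 323 at day 1 and 151 at day 28, and limma with Benjamini-Hochberg adjustment called 0 of its 3 comparisons (log2 fold change 1.01, adjusted p = 0.0746 at day 1 against PBS; -0.06, adjusted p = 0.936 at day 28 against PBS; -1.07, adjusted p = 0.0544 between the NM groups). Npc2, whose product binds sterols in the lysosome with NPC1, averaged 1201, 801 and 979 FPKM in PBS, at day 1 and at day 28. Lipa, the lysosomal acid lipase, averaged 429, 252 and 329 FPKM in the same order. Neither Npc2 nor Lipa passed (limma adjusted p = 0.115 and 0.0838 at day 1 against PBS).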
